A study of Mus musculus with 12 samples.

Results

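Collagen chain genes encode the polypeptide chains that fold in threes into collagen molecules. They were taken as every mouse gene whose RefSeq symbol consists of Col, a number, the letter a and a number, leaving out Col2a1 and Col9a1, and 42 genes fit that rule. All 42 had a probe on the array, and 32 of them passed the filter, which asked that the 3 arrays of some group all show a probe well above background. These 32 were part of 19507 genes or unnamed transcripts tested, of which 14577 had a symbol. By molecule type, the 32 comprised 10 fibrillar, 5 fibril-associated, 5 basement membrane and 12 other chains.

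The arrays compared mouse embryonic fibroblasts (MEFs), primary connective tissue cells grown from embryos, from Itpr2 knock-out (KO) and wild-type (WT) animals. The product of Itpr2 is a receptor for inositol trisphosphate that lets calcium out of the endoplasmic reticulum. There were 4 groups of 3 arrays each: KO late, with Itpr2 KO MEFs cultured for 5 passages, WT late, with wild-type MEFs cultured for 5 passages, KO early, with Itpr2 KO MEFs at 3 passages, and WT early, with wild-type MEFs at 3 passages. The series' design names 3 independent animals per genotype; the labels name no strain, no deleted exon and no agent given to any group, and liver samples that the design mentions were not analysed here.

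Collagen chains are made in the endoplasmic reticulum, where prolines and lysines are hydroxylated, chains are joined into a triple helix and chaperones such as HSP47 escort the product to secretion. Fibrillar collagens then assemble into the banded fibrils that give connective tissue its strength, fibril-associated collagens coat those fibrils, collagen VI forms beaded filaments around cells, and collagen IV forms the sheet of the basement membrane. Fibroblasts are the main source of collagens I, III, V and VI in connective tissue.

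Each array held 39429 probes, of which between 59.1% and 67.5% were well above background, and replicates of a group correlated at 0.985 to 0.997 over kept probes (Pearson, across probes). All 10 fibroblast markers examined were measured, Vim and Pdgfra among them. So were 9 of 9 macrophage, 4 of 4 smooth muscle, 4 of 4 tendon and 10 of 12 cartilage markers. Of other lists, 4 of 7 bone, 3 of 5 neural and glial, 3 of 5 adipocyte, 2 of 6 skeletal muscle, 2 of 6 epithelial and 2 of 6 endothelial markers were measured. Some skeletal muscle, epithelial and endothelial markers did not pass the filter. Of these, Myod1, Myog, Krt8, Cdh1, Cdh5 and Cldn5 were above background on no array, Epcam on 1, Myh3 on 3, Emcn on 4, Tek on 6, Krt5 on 7 and Chrna1 on 8. Itpr2 itself had log2 levels of 1.75, 1.83 and 1.72 in KO late, 1.53, 1.74 and 1.56 in WT late, 1.12, 1.36 and 1.58 in KO early and 1.23, 0.96 and 0.66 in WT early, so it was not lower in KO. The position of its probe relative to the deletion is unknown here, so the labels of genotype cannot be checked from it. Replicates 1, 2 and 3 of every group sat on slides 1, 2 and 3, and each group kept the same position on every slide, so position and group cannot be told apart. Xist, which is transcribed from the silenced X of female cells, was above background on KO late replicates 1 and 2, WT late replicate 1, WT early replicate 1 and no KO early array, so arrays with Xist were spread unevenly over the groups.

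All levels below are log2 signals relative to the 75th percentile of the same array, so that 1 unit is a doubling, and a level of 0 is that percentile. Because each gene is read by its own probe, levels are compared between groups and not between genes. A gene was called changed when its limma adjusted p (Benjamini-Hochberg over all 19507) was under 0.05, and each difference is followed by its standard error (SE) from the fit. In RNA from whole cultures, fewer cells of a type and less RNA per cell cannot be told apart.

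At late passage, 9 of the 32 measured chains were higher in KO than in WT and 1 was lower, where 7.83% of all genes were called in either direction, 3.46% higher and 4.37% lower. The higher chains were Col3a1 and Col11a1 among fibrillar collagens, Col9a2, Col12a1 and Col14a1 among fibril-associated ones, and Col6a1, Col6a2, Col8a2 and Col26a1 among the others, and the lower one was Col4a5 of the basement membrane. The median difference was 0.34 over the 32 chains and -0.0081 over all genes tested. It was 0.56, 0.40 and 0.18 on slides 1, 2 and 3. The KO and WT arrays did not overlap for 21 of the 32 chains, against 39.3% of all genes. The share of all genes called with 1 array left out is not given here, so the drops that follow are not results particular to collagen. The count of 10 called chains was 1, 2 and 3 without KO late replicate 1, 2 and 3, 6 without WT late replicate 1 and 3 without WT late replicate 3. Without both KO late arrays that carried Xist it was 0, and 1 gene of the whole table was then called. The 10 differences themselves lay between -0.47 and 3.19 in that fit, each with the same sign as before, with the spread of the single KO late array borrowed from the rest.

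With passage in WT cells the called chains were all lower. Of the 32, 12 were lower and 0 were higher in WT late than in WT early, where 10.6% of all genes were called, 4.37% lower and 6.22% higher. The median difference was -0.54 over the chains and -0.0043 over all genes, with -0.47, -0.57 and -0.62 on slides 1, 2 and 3, and the arrays did not overlap for 18 chains, against 27.7% of all genes. For both passage comparisons, too, the share of all genes called with 1 array left out is not given here. The count of 12 lower chains was 7 without KO early replicate 2, 6 without WT early replicate 3, 7 without any 1 of the 3 KO late arrays, which share the estimate of spread, 5 without WT late replicate 1 and 7 without WT late replicate 2. In KO cells, 1 chain was higher and 2 were lower at late passage, where 18.9% of all genes were called, 9.95% higher and 9% lower. The median was -0.14 over the chains and -0.047 over all genes, with 0.10, -0.043 and -0.41 on slides 1, 2 and 3, and the arrays did not overlap for 16 chains, against 51.9% of all genes. Because Xist was on KO late replicates 1 and 2 and on no KO early array, same-numbered late and early KO arrays may come from different animals, and differences between animals and passage cannot be told apart here. That count was 1 without KO early replicate 1 or 2 and without KO late replicate 1 or 2, 6 without KO early replicate 3 or WT early replicate 1, 5 without WT late replicate 2, and 0 without both KO late arrays that carried Xist. The late KO against WT comparison shares its WT late arrays with the WT passage comparison and its KO late arrays with the KO passage comparison, so these counts are not independent of each other.

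**Figure D1:**
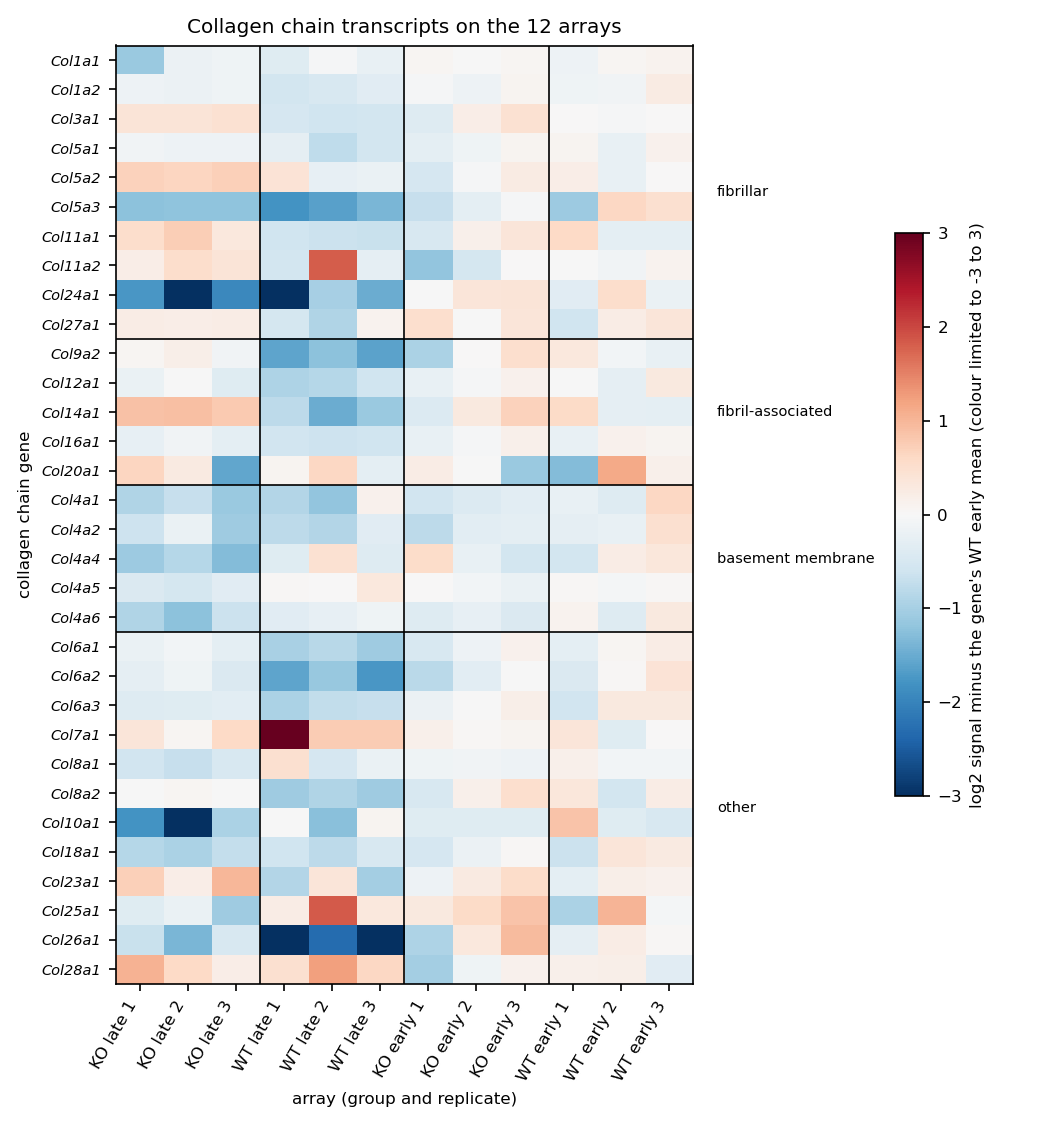
Log2 signal of the 32 measured collagen chain genes (rows, by molecule type) on the 12 arrays (columns, by group and replicate), minus the gene's mean over the 3 WT early arrays; red is higher and blue is lower than WT early. Col6a1, Col6a2, Col9a2, Col14a1 and Col26a1 are bluest in the 3 WT late columns, and Col24a1 is blue in both late groups.

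Among fibrillar collagens, Col1a1 and Col1a2 encode the chains of collagen I, the main collagen of skin, bone and tendon. Col1a1 stood at 4.94, 5.86 and 5.90 in KO late, 5.68, 5.99 and 5.81 in WT late, 6.09, 6.03 and 6.11 in KO early and 5.88, 6.10 and 6.14 in WT early. KO late replicate 1 was the lowest of the 12, and the KO late and WT late ranges overlapped. Its differences were -0.26 ± 0.22 between KO and WT at late passage (limma adjusted p = 0.51), -0.51 ± 0.22 with passage in KO (limma adjusted p = 0.14) and -0.21 ± 0.22 with passage in WT (limma adjusted p = 0.57). Col1a2 stood at 7.89, 7.87 and 7.91 in KO late, 7.49, 7.57 and 7.72 in WT late, 8.02, 7.90 and 8.13 in KO early and 7.91, 7.94 and 8.30 in WT early. Every WT late array was below every array of the other groups. It was lower in WT late than in WT early with a difference of -0.45 ± 0.12 (limma adjusted p = 0.035), a call lost after quantile normalization, where the difference was -0.20 (limma adjusted p = 0.28), and without any 1 of 7 arrays, KO early replicate 2, the 3 KO late ones, WT early replicate 3 and WT late replicates 1 and 2 (limma adjusted p = 0.051 to 0.10). The KO against WT difference at late passage was 0.30 ± 0.12 (limma adjusted p = 0.14).

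Col3a1 encodes the only chain of collagen III, which mixes with collagen I in stretchy tissues such as vessel wall and skin. It stood at 6.64, 6.64 and 6.73 in KO late, 5.77, 5.66 and 5.72 in WT late, 5.88, 6.45 and 6.71 in KO early and 6.28, 6.24 and 6.26 in WT early. The KO late arrays were all above the WT late arrays, and the KO early arrays were spread most widely. Col3a1 was 1.94-fold higher in KO late than in WT late, by 0.96 ± 0.17 (limma adjusted p = 0.012). Its difference was -0.55 ± 0.17 with passage in WT (limma adjusted p = 0.066) and 0.33 ± 0.17 with passage in KO (limma adjusted p = 0.20). Without both KO late arrays that carried Xist the late difference was 1.02 (limma adjusted p = 0.23), and without KO late replicate 1 alone the adjusted p was 0.054.

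The stretches just upstream of the RefSeq transcription starts of Col3a1 and Col1a2 are shown as examples of a called and an uncalled fibrillar chain at late passage; 7 of the 10 fibrillar chains did not overlap between KO late and WT late, against 39.3% of all genes. They come from RefSeq promoters of build GRCm38.p6, run 5′ to 3′ on the gene's strand and end at the base before the gene's outermost annotated start, with any CCAAT, or ATTGG on the other strand, in capitals. CCAAT is the element bound by the factor NF-Y, known from the mouse type I collagen promoters. Col3a1 lies on chromosome 1, plus strand, chr1:45311288-45311537, and Col1a2 on chromosome 6, plus strand, chr6:4505368-4505617.
Col3a1: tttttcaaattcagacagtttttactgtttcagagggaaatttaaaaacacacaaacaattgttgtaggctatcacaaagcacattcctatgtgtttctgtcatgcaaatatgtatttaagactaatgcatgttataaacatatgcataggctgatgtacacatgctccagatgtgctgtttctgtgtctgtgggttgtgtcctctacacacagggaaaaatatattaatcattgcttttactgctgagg
Col1a2: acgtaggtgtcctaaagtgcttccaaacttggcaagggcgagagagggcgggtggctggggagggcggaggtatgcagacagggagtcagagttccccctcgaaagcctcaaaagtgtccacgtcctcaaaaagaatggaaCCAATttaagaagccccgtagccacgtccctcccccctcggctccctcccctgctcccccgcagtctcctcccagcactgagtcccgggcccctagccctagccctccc
The Col1a2 window holds 1 CCAAT, 109 bases before the start, and the Col3a1 window holds none but has 1 TATAAA, 117 bases before the start. Of all 32851 RefSeq promoters, 33.8% hold CCAAT or ATTGG within 250 bases before the start, and 12 of the 36 entries of the collagen chain genes do. TATAAA or TTTATA occurs in 12.4% of all promoters and in 5 of those 36, and GGGCGG or CCGCCC in 32.7% and in 22 of those 36. Matches of different motifs were counted separately and may share bases, and 34 of the 42 genes had an entry.

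Collagen V and collagen XI sit inside heterotypic fibrils and limit their width. Col11a1 stood at 3.23, 3.45 and 3.02 in KO late, 2.11, 2.06 and 2.04 in WT late, 2.23, 2.85 and 3.07 in KO early and 3.30, 2.41 and 2.41 in WT early. The KO late arrays lay above all WT late arrays, while the early groups overlapped. It was 2.24-fold higher in KO late than in WT late, by 1.16 ± 0.26 (limma adjusted p = 0.027), and the call was lost without any 1 of the 6 late arrays (limma adjusted p = 0.056 to 0.095). Its partner Col11a2 was above background on 3 of 3 arrays in KO late, 2 in WT late, 0 in KO early and 1 in WT early. Col11a2 passed the filter only through KO late, so its presence on all KO late arrays was fixed by the filter. Its late difference was 0.03 ± 0.52 (limma adjusted p = 0.98).

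Col5a2, a chain of collagen V, was the 1 collagen chain higher in KO late than in KO early. It stood at 2.35, 2.31 and 2.38 in KO late, 2.07, 1.42 and 1.46 in WT late, 1.15, 1.63 and 1.91 in KO early and 1.87, 1.44 and 1.67 in WT early. The 3 KO late arrays were the highest of the 12. The passage difference in KO was 0.79 ± 0.22 (limma adjusted p = 0.031, and 0.074 to 0.11 without any 1 KO late array, KO early replicate 1 or 2), and the late KO against WT difference was 0.69 ± 0.22 (limma adjusted p = 0.077). Its trimer partner Col5a1 stood at 4.87, 4.81 and 4.81 in KO late, 4.70, 4.20 and 4.42 in WT late, 4.68, 4.83 and 5.05 in KO early and 5.06, 4.76 and 5.09 in WT early. Col5a1 was lower in WT late than in WT early with a difference of -0.53 ± 0.15 (limma adjusted p = 0.047; 0.10 after quantile normalization and 0.058 after normexp), with all late arrays below all early ones; the call was lost without 8 of the 12 arrays in turn (limma adjusted p = 0.069 to 0.13). The difference was 0.39 ± 0.15 between KO late and WT late (limma adjusted p = 0.13).

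Col5a3, a further chain of collagen V, stood at 0.14, 0.16 and 0.16 in KO late, -0.42, -0.27 and -0.00 in WT late, 0.68, 1.07 and 1.35 in KO early and 0.28, 2.00 and 1.85 in WT early. Both late groups lay below both early groups. It was lower with passage in WT with a difference of -1.60 ± 0.38 (limma adjusted p = 0.027, and 0.068 to 0.079 without WT early replicate 2 or 3 or WT late replicate 1 or 2), and the passage difference in KO was -0.88 ± 0.38 (limma adjusted p = 0.13). Col24a1, a fibrillar chain known mainly from bone, stood at -6.83, -8.54 and -7.03 in KO late, -8.43, -6.09 and -6.58 in WT late, -5.11, -4.72 and -4.71 in KO early and -5.42, -4.57 and -5.28 in WT early. It was well above background on all early arrays, on 1 of 3 WT late arrays and on no KO late array. Col24a1 was lower in KO late than in KO early with a fitted difference of -2.62 ± 0.59 (limma adjusted p = 0.014). Its size depends on the handling of background. With the dim arrays set to the lowest signal that passed the background test on the array it was 3.38-fold, and with normexp background correction the difference was -0.55 (limma adjusted p = 0.016). The passage difference in WT was -1.94 ± 0.59 (limma adjusted p = 0.064). The remaining fibrillar chain, Col27a1, was not called in any comparison.

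**Figure D2:**
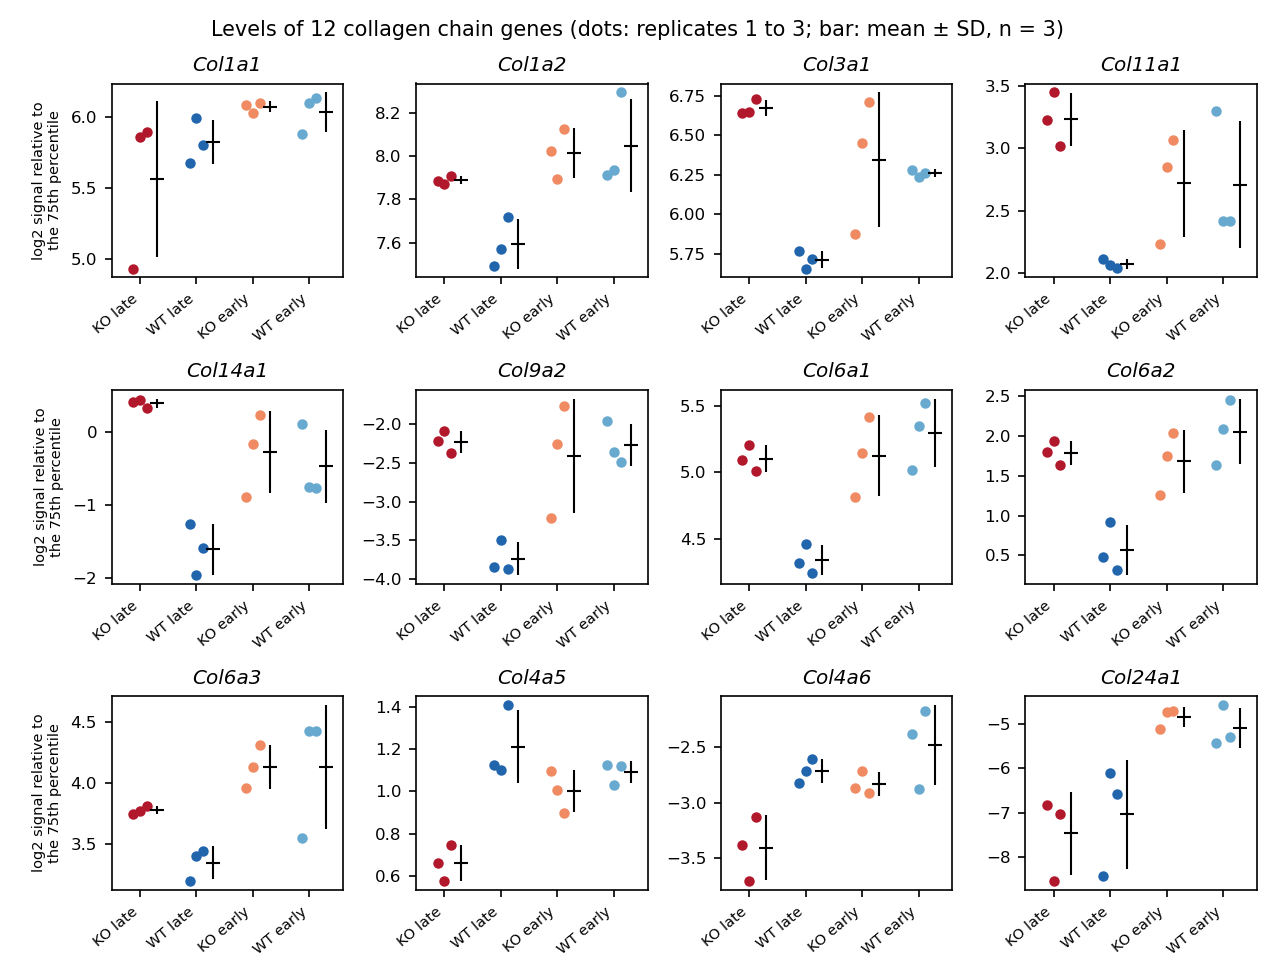
Levels of 12 collagen chain genes, 1 panel each, as log2 signal relative to the array's 75th percentile; dots are the 3 replicates of KO late, WT late, KO early and WT early from left to right, and the black mark and bar are the mean ± SD. In the Col3a1, Col11a1, Col14a1, Col9a2, Col6a1 and Col6a2 panels every WT late dot lies below every KO late dot, and in the Col4a5 and Col4a6 panels every KO late dot lies below every WT late dot.

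Among fibril-associated collagens, which do not form fibrils but bind to their surface, 3 of 5 measured chains were higher in KO late than in WT late and 4 of 5 were lower in WT late than in WT early, where 3.46% of all genes were higher and 4.37% lower in these comparisons. Col14a1 encodes collagen XIV, found in tendon, skin and other dense connective tissue. It stood at 0.42, 0.45 and 0.33 in KO late, -1.26, -1.95 and -1.59 in WT late, -0.88, -0.17 and 0.23 in KO early and 0.11, -0.75 and -0.77 in WT early. The KO late arrays were the highest and the WT late arrays the lowest of the 12, with no overlap with either early group. Col14a1 was 4.00-fold higher in KO late than in WT late, by 2.00 ± 0.31 (limma adjusted p = 0.0072), and 1.93 without both arrays that carried Xist (limma adjusted p = 0.21). This call remained in 21 of the 22 alternative fits. With passage it was lower in WT with a difference of -1.13 ± 0.31 (limma adjusted p = 0.043; 0.063 with the replicate number as a block, and 0.055 to 0.12 without any 1 array other than KO early replicates 1 and 3), and the difference in KO was 0.67 ± 0.31 (limma adjusted p = 0.15). A second Col14a1 probe gave 0.85 for the late KO against WT difference.

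Col9a2 encodes a chain of collagen IX, which coats the collagen II fibrils of cartilage. It stood at -2.22, -2.09 and -2.38 in KO late, -3.85, -3.49 and -3.87 in WT late, -3.22, -2.26 and -1.76 in KO early and -1.96, -2.36 and -2.49 in WT early. The WT late arrays were the lowest of the 12. Col9a2 was 2.84-fold higher in KO late than in WT late, by 1.51 ± 0.31 (limma adjusted p = 0.019). With passage it was lower in WT with a difference of -1.47 ± 0.31 (limma adjusted p = 0.017), and the difference in KO was 0.18 ± 0.31 (limma adjusted p = 0.71). The trimer partner Col9a3 was above background on 0 of the 12 arrays. The late KO against WT call of Col9a2 was lost without any 1 KO late array or WT late replicate 3 (limma adjusted p = 0.052 to 0.077), and its WT passage call without WT late replicate 1 (limma adjusted p = 0.051).

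The remaining called fibril-associated chains were Col12a1 and Col16a1, named after their values were seen. Col12a1, whose collagen XII bridges fibrils in tendon and fascia, stood at 3.56, 3.74 and 3.39 in KO late, 2.82, 2.90 and 3.16 in WT late, 3.53, 3.72 and 3.88 in KO early and 3.74, 3.48 and 4.03 in WT early. The WT late arrays again lay below all others. The late difference was 0.60 ± 0.16 (limma adjusted p = 0.0498; 0.052 after quantile normalization, 0.058 with the replicate number, which is the slide, as a block, and 0.052 to 0.16 without 9 of the 12 arrays in turn, the 6 late ones included), and it was lower with passage in WT with a difference of -0.79 ± 0.16 (limma adjusted p = 0.016; 0.052 without WT late replicate 1). Col16a1 was lower with passage in WT with a difference of -0.60 ± 0.12 (limma adjusted p = 0.015), or -0.49 with the mean of its 3 kept probes (limma adjusted p = 0.0501). That call was also lost with 1 variance per group (limma adjusted p = 0.067) and with only the WT arrays fitted (limma adjusted p = 0.072). So were the WT passage calls of Col1a2, Col5a1, Col6a3, Col8a2, Col12a1 and Col14a1 in both fits (limma adjusted p = 0.077 to 0.18). Col9a2 lost its call only in the first (limma adjusted p = 0.077) and Col5a3 only in the second (limma adjusted p = 0.13). Col6a1, Col6a2 and Col26a1 kept theirs in both. The KO against WT difference of Col16a1 at late passage was 0.38 ± 0.12 (limma adjusted p = 0.078), with -0.07 from 1 of its 2 other kept probes. Col20a1 was not called in any comparison.

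Collagen VI filaments are built from 1 chain each of Col6a1 and Col6a2 with another chain, Col6a3 in most tissues. Col6a1 stood at 5.10, 5.21 and 5.01 in KO late, 4.32, 4.46 and 4.24 in WT late, 4.81, 5.14 and 5.42 in KO early and 5.02, 5.35 and 5.53 in WT early. Its WT late arrays were below all the other 9 arrays, and the remaining groups overlapped. Col6a1 was 1.70-fold higher in KO late than in WT late, by 0.76 ± 0.17 (limma adjusted p = 0.024), and lower with passage in WT with a difference of -0.96 ± 0.17 (limma adjusted p = 0.0085). The late call was lost without any 1 KO late array or WT late replicate 1 or 3 (limma adjusted p = 0.057 to 0.089). Its passage difference in KO was -0.02 ± 0.17 (limma adjusted p = 0.95).

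Col6a2 stood at 1.80, 1.94 and 1.63 in KO late, 0.47, 0.91 and 0.31 in WT late, 1.26, 1.74 and 2.04 in KO early and 1.63, 2.08 and 2.46 in WT early. As for Col6a1, the WT late arrays were the 3 lowest. It was 2.34-fold higher in KO late than in WT late, by 1.22 ± 0.25 (limma adjusted p = 0.020), and lower with passage in WT with a difference of -1.49 ± 0.25 (limma adjusted p = 0.0074). The late call was lost without any 1 KO late array or WT late replicate 3 (limma adjusted p = 0.051 to 0.078). The passage difference in KO was 0.11 ± 0.25 (limma adjusted p = 0.80). Col6a3 stood at 3.75, 3.77 and 3.81 in KO late, 3.20, 3.41 and 3.45 in WT late, 3.96, 4.13 and 4.32 in KO early and 3.55, 4.42 and 4.43 in WT early. It was lower with passage in WT with a difference of -0.78 ± 0.21 (limma adjusted p = 0.041; 0.059 after quantile normalization, and 0.061 to 0.12 without 9 of the 12 arrays in turn), and its late KO against WT difference was 0.43 ± 0.21 (limma adjusted p = 0.24) although those arrays did not overlap. The calls of Col6a1 and Col6a2 in the WT passage comparison remained in 21 of 21 alternative fits, and without both KO late arrays that carried Xist their late KO against WT differences were 0.67 and 1.07 (limma adjusted p = 0.39 and 0.34). The alternative partners Col6a4, Col6a5 and Col6a6 were not kept.

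The upstream sequences of Col6a1 and Col6a2 are shown because these neighbouring genes of chromosome 10 were called in the same direction in both comparisons. Both lie on the minus strand of GRCm38.p6, at chr10:76726045-76726294 for Col6a1 and chr10:76623631-76623880 for Col6a2, and neither window holds CCAAT, so no letter is in capitals.
Col6a1: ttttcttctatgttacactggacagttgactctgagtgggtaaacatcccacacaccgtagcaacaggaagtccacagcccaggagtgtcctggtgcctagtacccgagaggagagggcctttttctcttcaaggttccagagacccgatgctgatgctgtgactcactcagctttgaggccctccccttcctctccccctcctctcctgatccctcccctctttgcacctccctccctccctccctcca
Col6a2: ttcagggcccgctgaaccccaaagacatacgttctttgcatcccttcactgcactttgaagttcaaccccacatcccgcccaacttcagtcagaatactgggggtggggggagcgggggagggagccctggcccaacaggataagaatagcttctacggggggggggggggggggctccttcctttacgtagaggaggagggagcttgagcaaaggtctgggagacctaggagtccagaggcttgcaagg
Neither window holds TATAAA, and only that of Col6a2 holds GGGCGG or CCGCCC, 175 bases before the start.

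Col26a1, a little studied collagen known from testis and ovary, stood at -3.64, -4.34 and -3.46 in KO late, -7.41, -5.29 and -7.24 in WT late, -3.90, -2.65 and -2.01 in KO early and -3.24, -2.74 and -2.93 in WT early. Of the WT late arrays 1 of 3 was above background, and all others were. Its fitted differences were 2.83 ± 0.58 between KO late and WT late (limma adjusted p = 0.020) and -3.68 ± 0.58 with passage in WT (limma adjusted p = 0.0062). Both depend on levels near background. With normexp background correction, which adds a fixed offset to every signal, they were 0.91 and -1.41 (limma adjusted p = 0.022 and 0.0022). The first call was lost without any 1 KO late array or WT late replicate 1 or 3 (limma adjusted p = 0.051 to 0.083). Col8a2, a chain of the short-chain network collagen VIII named after its values were seen, stood at 1.92, 1.98 and 1.92 in KO late and 0.86, 1.01 and 0.86 in WT late, a difference of 1.03 ± 0.26 (limma adjusted p = 0.041; 0.059 with the slide as a block). A second probe gave -0.41, and with the mean of both probes the call was lost (limma adjusted p = 0.50), as it was without 7 of the 12 arrays in turn, the 6 late ones included (limma adjusted p = 0.066 to 0.13). Its partner Col8a1 had -0.52 ± 0.20 (limma adjusted p = 0.14). Col8a2 was also lower with passage in WT, with a difference of -1.01 ± 0.26 (limma adjusted p = 0.037; with the mean of both probes -0.73, limma adjusted p = 0.094, and 0.055 to 0.10 without 9 of the 12 arrays in turn).

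The other 8 chains of this group, Col6a3, Col7a1, Col8a1, Col10a1, Col18a1, Col23a1, Col25a1 and Col28a1, were not called between KO late and WT late. Col10a1, the network collagen of hypertrophic cartilage, stood at 0.00, -1.40 and 0.84 in KO late and 1.79, 0.53 and 1.89 in WT late, which overlapped (-1.59 ± 0.56, limma adjusted p = 0.11). Col7a1, whose anchoring fibrils fasten skin epithelium to the dermis, had 1 high array, 3.73 in WT late replicate 1, against 1.50 on both other WT late arrays and 0.37 to 1.33 elsewhere. Col25a1, a transmembrane collagen of nerve cells, was above background on 3 WT late, 0 KO late, 2 KO early and 1 WT early arrays. It passed the filter only through WT late, so its presence there was fixed by the filter. Its late KO against WT difference of -1.34 ± 0.53 rests on levels near background and missed the threshold (limma adjusted p = 0.15).

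**Figure D3:**
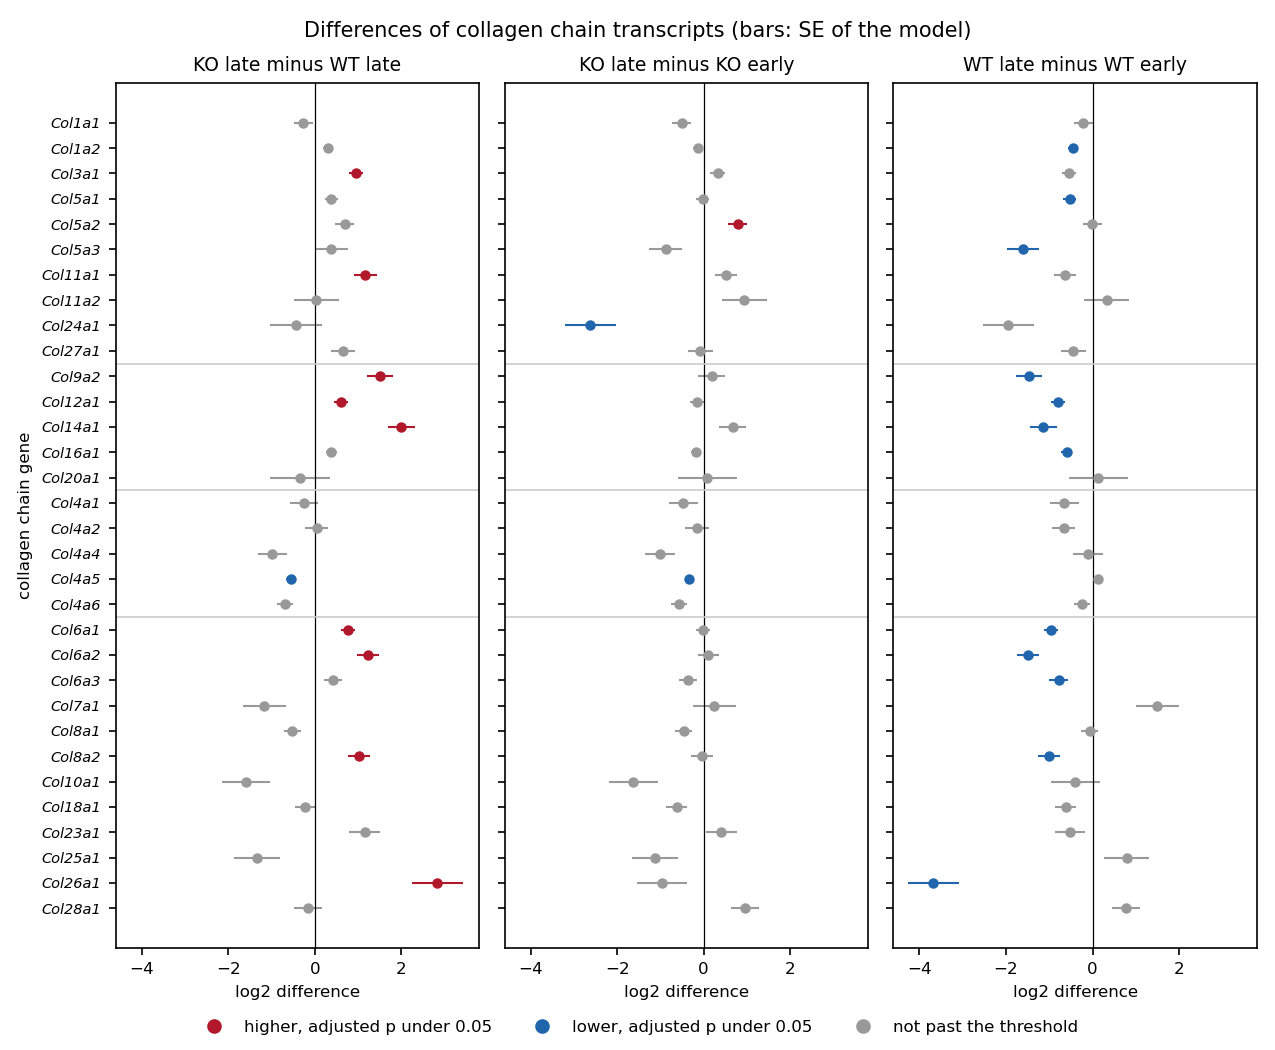
Log2 differences of the 32 measured collagen chain genes for KO late minus WT late, KO late minus KO early and WT late minus WT early; points are fitted differences, bars are ± SE, red and blue mark genes higher and lower with an adjusted p under 0.05, and grey lines part fibrillar, fibril-associated, basement membrane and other chains from top to bottom. Red points in the left panel and blue points in the right panel share Col9a2, Col12a1, Col14a1, Col6a1, Col6a2, Col8a2 and Col26a1, and these comparisons share the WT late arrays.

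Basement membrane chains had differences below 0 between KO late and WT late in 4 of 5 cases, as did 10014 of all 19507 genes. Their median was -0.55, against 0.39 over the 10 fibrillar, 0.60 over the 5 fibril-associated and 0.13 over the 12 other chains. With normexp background correction the basement membrane median was -0.24. At early passage all 5 were below 0 in KO, with a median of -0.35 and 0 called. So were 20 of all 32 chains and 9067 of all 19507 genes. Col4a5 encodes a chain of collagen IV that pairs with Col4a3 and Col4a4 in kidney and with Col4a6 in smooth muscle and skin. It stood at 0.66, 0.57 and 0.75 in KO late, 1.13, 1.10 and 1.41 in WT late, 1.10, 1.01 and 0.90 in KO early and 1.13, 1.03 and 1.12 in WT early. The 3 KO late arrays were the lowest of the 12. Col4a5 was 1.47-fold lower in KO late than in WT late, with -0.55 ± 0.10 (limma adjusted p = 0.014; 0.067 and 0.060 without KO late replicates 1 and 2). It was also lower with passage in KO with a difference of -0.34 ± 0.10 (limma adjusted p = 0.042; 0.068 after quantile normalization, 0.077 after normexp background correction, and 0.051 to 0.15 without 7 of the 12 arrays in turn). The passage difference in WT was 0.12 ± 0.10 (limma adjusted p = 0.47). Col4a5 lies on the X chromosome. KO late replicates 1 and 2, which carried Xist, had 0.66 and 0.57, and replicate 3, which did not, had 0.75. Without both arrays that carried Xist the late KO against WT difference was -0.47, resting on a single KO late array. The part of Xist status in the Col4a5 difference was not tested.

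Its neighbour and partner Col4a6 stood at -3.38, -3.71 and -3.12 in KO late, -2.82, -2.72 and -2.60 in WT late, -2.87, -2.71 and -2.91 in KO early and -2.38, -2.87 and -2.18 in WT early. The KO late arrays were again the 3 lowest, and the differences of -0.69 ± 0.19 from WT late (limma adjusted p = 0.051) and -0.57 ± 0.19 from KO early (limma adjusted p = 0.058) missed the threshold. A second Col4a6 probe gave -0.35 and -0.15 for these differences. Col4a4 had -0.98 ± 0.34 between KO late and WT late (limma adjusted p = 0.10) and -1.01 ± 0.34 with passage in KO (limma adjusted p = 0.063), where a second probe gave -1.09 and 0.03, and Col4a3 was not kept. The widely used pair Col4a1 and Col4a2 was not called: the late KO against WT differences were -0.25 ± 0.33 for Col4a1 (limma adjusted p = 0.69) and 0.05 ± 0.27 for Col4a2 (limma adjusted p = 0.94).

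The upstream sequences of Col4a5 and Col4a6 are shown because these neighbours on the X chromosome are read in opposite directions from nearby starts, and both had their lowest levels in KO late. Col4a5 lies on the plus strand at chrX:141475169-141475369 and Col4a6 on the minus strand at chrX:141474096-141474326 of GRCm38.p6, and CCAAT is in capitals.
Col4a5: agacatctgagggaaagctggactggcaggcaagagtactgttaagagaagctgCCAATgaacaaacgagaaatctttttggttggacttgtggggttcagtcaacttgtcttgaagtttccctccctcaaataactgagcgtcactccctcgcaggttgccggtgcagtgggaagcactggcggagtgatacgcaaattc
Col4a6: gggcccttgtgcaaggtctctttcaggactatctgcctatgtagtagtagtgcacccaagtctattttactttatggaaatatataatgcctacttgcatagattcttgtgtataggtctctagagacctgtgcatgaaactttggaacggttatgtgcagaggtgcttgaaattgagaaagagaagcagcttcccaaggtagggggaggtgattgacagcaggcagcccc
The Col4a5 window holds 1 CCAAT, 147 bases before the start, and the Col4a6 window holds none, nor do these windows hold TATAAA or GGGCGG.

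At early passage no chain separated the genotypes past the threshold. Between KO early and WT early 0 of the 32 chains were called, where 0.0359% of all genes were, 0.0256% higher and 0.0103% lower. Of the chains 0 had an unadjusted p under 0.05, against 1168 of all 19507 genes, and the smallest adjusted p was 0.74 (limma). The differences ran from -0.57 to 0.57 with a median of -0.085, against 0.017 over all genes, and the arrays did not overlap for 2 chains, against 9.54% of all genes. With 3 arrays a group this does not show that the genotypes were alike. The passage response of KO minus that of WT tests whether the passage differences depended on genotype. By limma 0 of 32 chains were called, where 0.0871% of all genes were, 0.0205% higher and 0.0666% lower. An unadjusted p under 0.05 was found for 14 of the 32 chains, against 2713 of all 19507 genes. The median of these differences of differences was 0.42 over the chains, against -0.025 over all genes. They were positive for 22 of 32 chains, against 9087 of all 19507 genes. The largest values included 2.71 ± 0.83 for Col26a1, 1.80 ± 0.43 for Col14a1, 1.65 ± 0.43 for Col9a2 and 1.60 ± 0.35 for Col6a2, and the smallest adjusted p was 0.13, for Col6a2. Without KO early replicate 3, 2 chains were called, and the share of all genes called in that fit is not given here. A genotype-dependent passage response of single chains was thus not shown at this number of arrays.

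The 10 chains that were not kept, Col13a1, Col15a1, Col17a1, Col19a1, Col22a1, Col4a3, Col6a4, Col6a5, Col6a6 and Col9a3, had no group with a probe above background on all 3 arrays. Among them were Col17a1, which anchors epithelial cells to the basement membrane, and Col4a3, a chain of the kidney basement membrane. Of the 32 kept chains, 26 were above background on all 12 arrays. With the test limited to such probes, 8 were higher and 2 lower in KO late than in WT late, and 0 higher and 11 lower in WT late than in WT early. The share of all genes called under that stricter filter is not given here, so these counts show only how the chain calls held.

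Genes that process collagen were read from lists chosen with earlier results of these data known. Between KO late and WT late, where 3.46% of all genes were higher and 4.37% lower, Serpinh1, which encodes the collagen chaperone HSP47, was higher by 0.39 ± 0.083 (limma adjusted p = 0.022) and was the only one called of 10 chaperone and export genes. Of 14 genes for hydroxylases and other chain modification enzymes 0 were called in that comparison, and of 6 for propeptide removal 0. Of 5 lysyl oxidase genes for crosslinking 1 was lower, Loxl4 with a difference of -0.52 ± 0.14 (limma adjusted p = 0.047), and of 8 receptor genes 1 was lower, the integrin chain Itga10 with a difference of -0.34 ± 0.083 (limma adjusted p = 0.034). Of 5 breakdown genes 1 was lower, Ctsk, the collagen-cleaving protease cathepsin K, with a difference of -1.40 ± 0.27 (limma adjusted p = 0.016). The medians of these lists lay between -0.55 and 0.22, against -0.0081 over all genes.

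With passage in WT, where 4.37% of all genes were lower and 6.22% higher, 4 of the 10 chaperone and export genes were lower, among them Creb3l1, a transcription factor that switches on collagen secretion genes, with a difference of -0.82 ± 0.22 (limma adjusted p = 0.045) and Kdelr2, a retrieval receptor of the secretory pathway, with a difference of -0.37 ± 0.10 (limma adjusted p = 0.049). Of 5 breakdown genes 3 were lower, with Fap, a surface protease of activated fibroblasts, at -2.16 ± 0.31 (limma adjusted p = 0.0037) and Ctsk at -1.12 ± 0.27 (limma adjusted p = 0.028). Of 8 receptors 2 were lower, Mrc2, which takes up collagen fragments, with a difference of -0.86 ± 0.20 (limma adjusted p = 0.027) and the collagen-binding kinase Ddr2 with a difference of -0.35 ± 0.088 (limma adjusted p = 0.032). Pcolce, an enhancer of propeptide removal, was lower with a difference of -0.38 ± 0.097 (limma adjusted p = 0.036), and P4ha1, a prolyl hydroxylase subunit, was higher by 0.41 ± 0.11 (limma adjusted p = 0.043). With passage in KO, where 9.95% of all genes were higher and 9% lower, P4ha1 and the lysyl hydroxylase gene Plod1 were higher, by 0.50 ± 0.11 and 0.52 ± 0.13 (limma adjusted p = 0.012 and 0.024), and 0 of 10 chaperone and export genes were called. Pcolce2, Ctsk and Fap were lower, with differences of -1.79 ± 0.30, -2.62 ± 0.27 and -2.58 ± 0.31 in KO late than in KO early (limma adjusted p = 0.0038, 0.00045 and 0.00091), and so were the receptors Mrc2 and Itga10. The 5 crosslinking genes had 0 calls in either passage comparison, and all 6 lists had 0 between KO early and WT early.

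Markers of other connective tissue cells also differed between KO late and WT late, where 3.46% of all genes were higher and 4.37% lower. Of 10 measured cartilage markers 5 were higher in KO late, among them Sox9, a transcription factor of cartilage, by 1.40 ± 0.15 (limma adjusted p = 0.0019), with summed linear levels of the list between 21.6 and 23.3 in KO late and between 14.2 and 20.2 in WT late, while Matn1 and Snorc were not kept. Of 4 tendon markers 3 were higher, with sums of 16.5 to 18.2 in KO late and 8.66 to 14.1 in WT late. Of 9 macrophage markers 2 were lower, with sums of 25.3 to 55.0 in KO late and 61.8 to 107.7 in WT late. Of the 10 fibroblast markers 2 were higher and 2 lower, with sums of 132.3 to 170.0 in KO late and 198.2 to 239.8 in WT late. With passage in WT, 6.22% of all genes were higher and 4.37% lower. There 2 of 10 cartilage, 2 of 4 tendon, 2 of 4 bone, 2 of 2 skeletal muscle and 2 of 10 fibroblast markers were lower. Higher were 1 of 3 neural and glial and 1 of 9 macrophage markers, with macrophage sums of 61.8 to 107.7 in WT late and 33.4 to 85.2 in WT early. Tendon sums were 8.66 to 14.1 in WT late and 9.38 to 9.87 in WT early, and cartilage sums 14.2 to 20.2 in WT late and 10.2 to 18.2 in WT early. With passage in KO, 9.95% of all genes were higher and 9% lower. There 4 of 10 cartilage markers were higher, with sums of 21.6 to 23.3 in KO late and 14.5 to 16.9 in KO early. Of the 10 fibroblast markers 5 were lower and 1 higher, with sums of 132.3 to 170.0 in KO late and 217.2 to 314.3 in KO early. Lower too were 2 of 4 bone, 2 of 2 skeletal muscle and 1 of 2 epithelial markers. Of 4 tendon markers 1 was higher and 1 lower, with sums of 16.5 to 18.2 in KO late and 9.99 to 10.3 in KO early. Of 3 neural and glial markers 1 was higher. Of 9 macrophage markers 0 were called. The part of these cell types in the collagen differences was not tested.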

How the data were processed

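RNA from 12 MEF cultures was hybridised to 1-colour Agilent mouse arrays, with 100 ng of RNA labelled per array, per the labels' protocols. The deposited scanner files hold spot intensities made with Agilent Feature Extraction, version 11.5.1.1 per the file headers and 10.7.3.1 per the submitters' processing notes, with array annotation on build mm9. The authors also deposited a table of log2 values whose probe means are within 0.0001 of 0 for 95.0% of probes; its array-to-array differences followed the scanner values (lowest correlation over probes 0.999999), and its column medians ran from -0.0428 to 0.0232. It served as an alternative for 26 of the chains.

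Here the processed intensity was scaled to each array's 75th percentile (568.9 to 902.5) and taken as log2. Control spots, outlier spots and 107 probes with an outlier spot were left out, 24359 probes were kept, and the brightest kept probe stood for a gene. RefSeq accessions matched for 27969 of 28290 probes. limma 3.58.1 in R 4.3.3 fitted 4 group means (8 residual and 2.22 prior degrees of freedom), with 5 contrasts adjusted over 19507 genes, two-sided, and was tested on simulated data. The number of arrays limits the precision.

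The members and lists were chosen with earlier results of these data known. Chains named in full were Col1a1, Col1a2, Col3a1, the 5 with the largest called differences in each direction and contrast, and their trimer partners; Col12a1, Col16a1 and Col8a2 fall outside that rule. Deviations of same-numbered WT late and WT early arrays correlated at 0.28, 0.24 and 0.14 for replicates 1, 2 and 3. Those of KO late and KO early correlated at 0.030, 0.079 and -0.092. Since KO early and WT early reached 0.16 for replicate 3, these values do not settle whether the WT numbers mark pairs. The reported fit paired no arrays, and the replicate number, which is also the slide, was used as a block only in an alternative. Alternatives changed the scaling, background correction, filter, probe choice, block, variance model, value table and arrays. normexp used the median spot signal, because the mean signal was not in the columns used, and spots with unusable local background (0 to 138 per array) received the array's median background, a choice made after seeing the data.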

Additional observations from a re-analysis of the deposited data

How the results depend on the processing

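No called chain changed sign under any alternative that was run. The counts below are of collagen chains only. The share of all genes called under each alternative is not given here, so a changed count is not a result particular to collagen. The count between KO late and WT late, 10 as reported, was 9 to 12 with quantile normalization, normexp, the stricter filter, the mean of probes, the replicate block, the authors' table and a fit of only those groups; it was 6 with no filter on dim probes, 16 with 1 variance per group and 0 without both KO late arrays that carried Xist. The count of 12 for WT passage was 10 to 12 with quantile normalization, normexp, the stricter filter, the mean of probes, the replicate block (11) and the authors' table, 6 with no filter, 4 with 1 variance per group and 5 with only those groups. The count of 3 for KO passage was 2 to 3 with quantile normalization, normexp, the stricter filter, the mean of probes and the authors' table. It was 1 with no filter, 5 with the replicate block, 10 with 1 variance per group and 10 with only those groups. Equal replicate numbers of KO late and KO early arrays may not mark the same animal. For KO early against WT early, and for the passage response of KO minus that of WT, the count was 0 in each setting that changed the processing or the model. That includes the replicate block. The passage response was not fitted on 2 groups. The fit without the KO late arrays that carried Xist was not read for KO early against WT early or for WT passage. Leaving out 1 array at a time gave counts of 1 to 12 for KO late against WT late, 5 to 13 for WT passage, 1 to 6 for KO passage, 0 to 0 for KO early against WT early and 0 to 2 for the passage response. With passage in KO, the median of the fibrillar chains was -0.054 as reported and 0.10 after quantile normalization, and that of the fibril-associated chains was 0.087 and, after normexp, -0.10. The causes were not tested. Chains near background, such as Col24a1, Col25a1 and Col26a1, are limited by signal over background.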
